A study of Mus musculus with 8 samples.

Results

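Ghrelin, the relaxins and the insulin-like peptides are small secreted hormones, and 9 genes that encode 6 of these peptides (Ghrl, Insl3, Insl5, Insl6, Rln1 and Rln3) and 3 of their receptors (Ghsr, Rxfp1 and Rxfp2) are described here in testes of mice with and without Ing2. The members were taken by name, as all probe sets whose annotated gene symbols include 1 of the 9. This gave 9 of the 35557 probe sets on the array, 1 for each gene, beside 19938 genes that have a probe set to themselves. In 8 of them the member is the only gene named. The probe set of Insl3 is also annotated to Jak3, a tyrosine kinase of blood cells, whose gene overlaps Insl3 in the GRCm38.p6 gene table. It is called the Jak3/Insl3 probe set below, and its level cannot be divided between both genes.

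Whole testis RNA came from 3 Ing2+/+ and 5 Ing2-/- mice of 2 to 3 months, labelled as littermates with no litter given, with 1 Affymetrix Mouse Gene ST array per mouse. The Ing2- allele lacks an exon of Ing2 that was flanked by loxP sites in embryonic stem cells. These cells came from a mouse strain other than C57BL/6J. EIIa-Cre, which acts in the early embryo, removed the exon, so every organ lacks it and not only the testis. Carriers were bred with C57BL/6J mice to lose the Cre transgene, and no mouse was otherwise treated. The sources used here do not say how many such crosses were made or how many stem cell clones founded the line. DNA of the stem cell strain may thus remain in these mice.

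Ghrelin is best known as a stomach hormone that acts on the growth hormone secretagogue receptor Ghsr after Mboat4 has attached a fatty acid to it. Expression of the ghrelin gene in Leydig cells and a transcript of that gene particular to the mouse testis have been described. Relaxins and insulin-like peptides share the fold of insulin, with a pair of chains that are cut from a longer precursor. Insl3 is the hormone of Leydig cells that brings the testis down into the scrotum through Rxfp2, relaxin acts through Rxfp1, and Insl6 is made by meiotic and later germ cells and is needed for full sperm production in mice.

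Of the 9 probe sets, only that of Ghrl differed between genotypes past the threshold. Ghrl was lower in all 5 Ing2-/- testes than in any Ing2+/+ testis, and its mean fell by 27.8%. Insl6 had a difference of −28.1% and also lay lower in every Ing2-/- testis, but it did not pass. The Jak3/Insl3 probe set had nearly the same mean in both groups. The call rule was an adjusted p under 0.05 from limma, a linear model for each probe set whose variance is drawn toward that of all probe sets, with Benjamini-Hochberg adjustment over all 35557. Log2 fold changes are Ing2-/- minus Ing2+/+. The same rule called 4.82% of all probe sets, 3.03% lower and 1.79% higher in Ing2-/- testes, so that 1 of 9 members lies close to what the whole array gave. The median log2 fold change was −0.08 over the 9 members and 0.03 over all probe sets. Of the member means, 5 were lower and 4 were higher. The groups did not overlap in 3 members (Ghrl, Insl6 and Rxfp2), all lower, beside 26.6% of all probe sets.

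**Figure D1:**
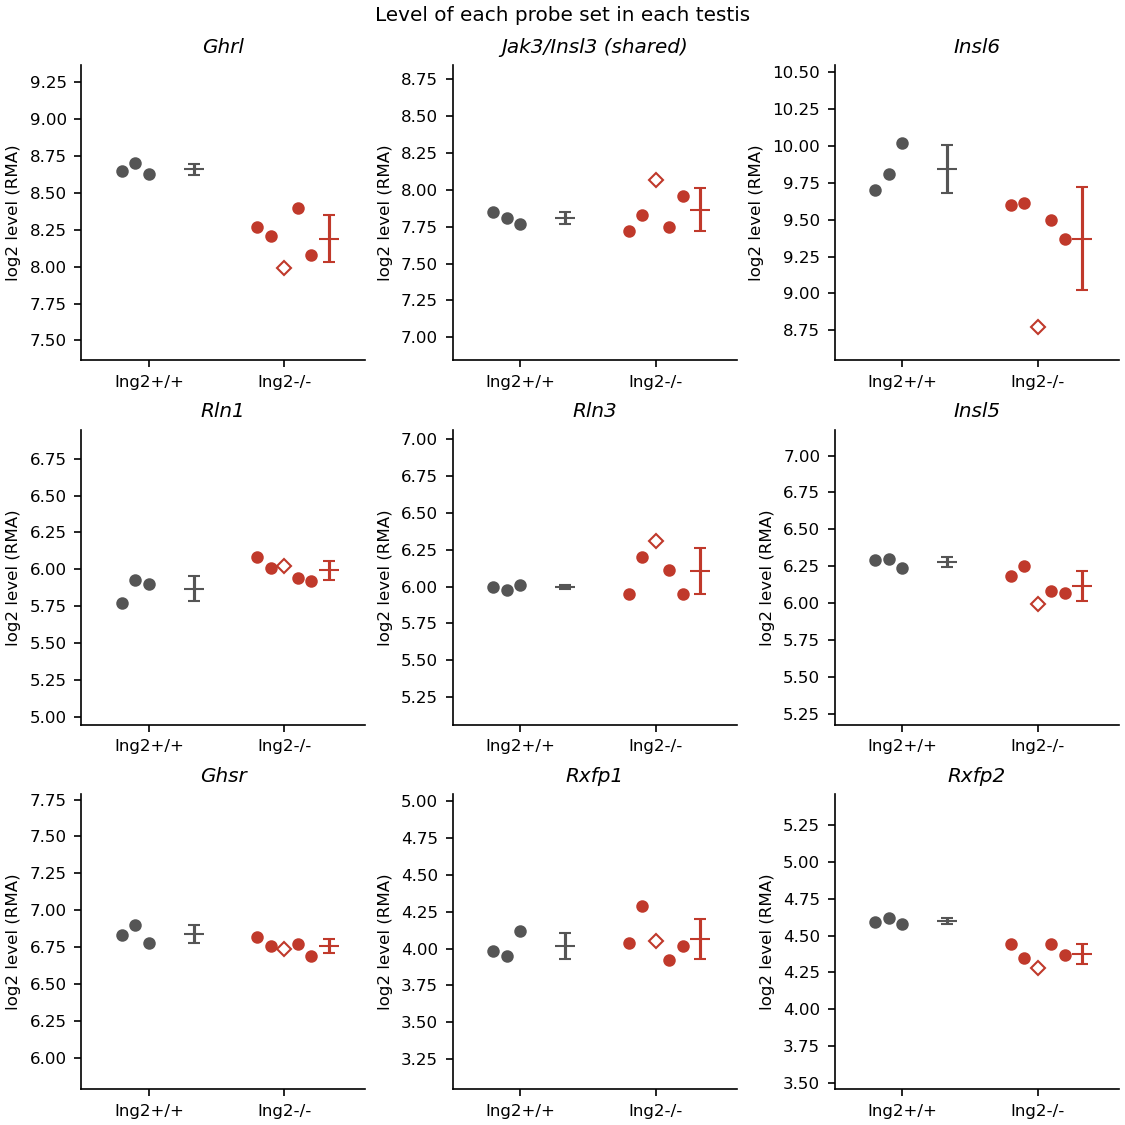
Log2 level (RMA, vertical axis, a span of 2 in each panel) of each probe set in 3 Ing2+/+ (grey) and 5 Ing2-/- testes (red, replicate 3 as an open diamond), with the group mean and 1 SD beside the points. All 5 Ing2-/- points lie below the Ing2+/+ points for Ghrl, Insl6 and Rxfp2.

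The array carries no detection call in the deposited values, so levels were set beside those of 12147 unnamed probe sets, which carry no gene symbol, on the same arrays. Their median ran from 5.47 to 5.51 on the log2 scale in Ing2+/+ and from 5.54 to 5.62 in Ing2-/- testes. Their 75th percentile ran from 6.95 to 6.97 and from 6.97 to 7.11. These probe sets are not all without a transcript, so the comparison places a level and does not decide expression. In Ing2+/+ testes 49.5% of the probe sets with exactly 1 symbol lay above that 75th percentile and 76.2% above the median.

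Insl6, Ghrl and the Jak3/Insl3 probe set lay above the 75th percentile on all 8 arrays. In Ing2+/+ testes 95.9% of the unnamed probe sets lay below Insl6, 90.2% below Ghrl and 84.2% below Jak3/Insl3. Ghsr (73.5%), Insl5 (65.1%), Rln3 (59.9%) and Rln1 (57.6%) lay between the median and the 75th percentile on all 8 arrays. Both relaxin-type receptors, Rxfp2 (32.5%) and Rxfp1 (20.1%), lay under the median on all 8 arrays. These 6 genes are therefore read as near the level of unnamed probe sets, and a fold change measured there can be smaller than that of the transcript.

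**Figure D2:**
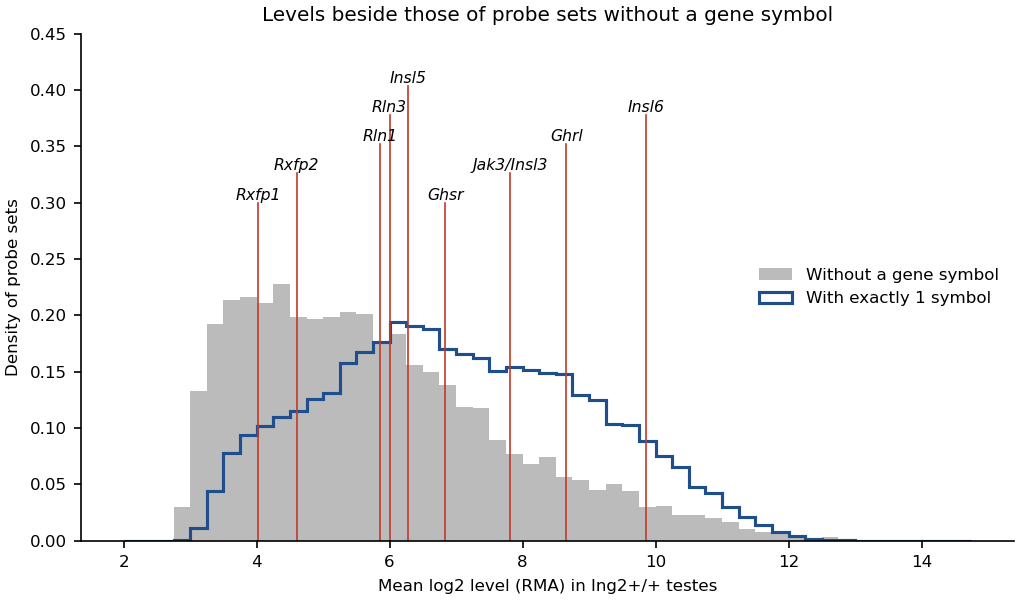
Density of the mean log2 level in Ing2+/+ testes (horizontal axis) for unnamed probe sets (grey) and with exactly 1 symbol (blue line), with each member as a red line whose height has no meaning. Rxfp1 and Rxfp2 lie in the lower part of the grey distribution, and Insl6, Ghrl and Jak3/Insl3 to the right of most of it.

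Ghrl, which encodes the ghrelin precursor, had log2 levels of 8.65, 8.70 and 8.63 in Ing2+/+ testes and of 8.27, 8.21, 7.99, 8.40 and 8.08 in Ing2-/- testes. A single level for the gene does not show which of its transcripts, the testis one included, gives the signal. The groups did not overlap, and Ing2-/- replicate 4 came nearest to the Ing2+/+ testes and replicate 3 lay farthest. The means were 8.66 ± 0.036 (SD, n = 3) and 8.19 ± 0.160 (SD, n = 5), which differ by −0.47 on the log2 scale (SE 0.0950, 95% interval −0.69 to −0.25, limma adjusted p = 0.0339). The exact permutation test over the arrays gave a two-sided p of 0.0179, the smallest that 3 against 5 arrays allow. Only probe sets whose groups do not overlap can reach it, and these make up 26.6% of the array. The call depended on which arrays were used. Without Ing2+/+ replicate 1, 2 or 3 the log2 fold change was −0.48, −0.45 and −0.49 with adjusted p-values of 0.127, 0.139 and 0.101 from limma. Over the whole array these settings called 67, 49 and 445 probe sets, against 1713 with all arrays. Without Ing2-/- replicate 1, 2 or 5 the adjusted p was 0.0549, 0.0560 and 0.0849, and without replicate 3 or 4 it was 0.0154 and 0.0199, under the threshold.

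Ghsr, the ghrelin receptor, lay between 6.78 and 6.90 in Ing2+/+ and between 6.69 and 6.82 in Ing2-/- testes, and the groups overlapped. Its log2 fold change was −0.08 (95% interval −0.22 to 0.06, adjusted p = 0.415 from limma). Of 9 other genes of the ghrelin and growth hormone system, all measured, limma called 0 and 1 had an unadjusted p under 0.05, with a median log2 fold change of −0.07. Over the whole array 9880 of 35557 probe sets had an unadjusted p under 0.05, and the counts at that level given for gene lists are to be read against it. That gene was Gpr39, a receptor related to Ghsr, whose mean was 5.86 in Ing2+/+ and 5.45 in Ing2-/- testes without overlap (−0.42, SE 0.101, adjusted p = 0.0513 from limma). Both means are near the level of unnamed probe sets. Mboat4, the enzyme that acylates ghrelin, had 0.11 (SE 0.114), and Leap2, a peptide that blocks Ghsr, had −0.12 (SE 0.0620, the next smallest p in this list).

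**Figure D3:**
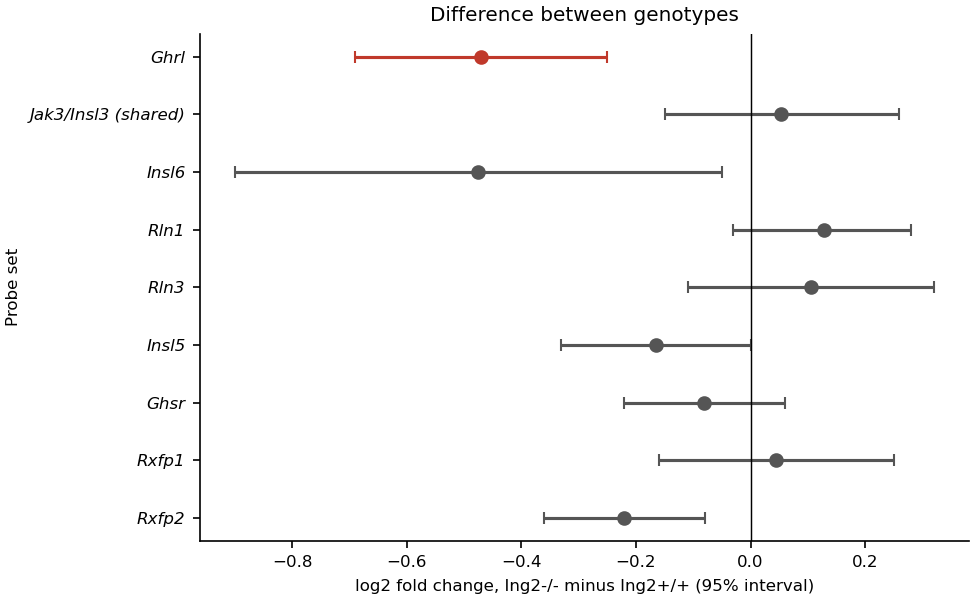
Log2 fold change of each member (point, horizontal axis, Ing2-/- minus Ing2+/+) with its 95% interval from limma (bar), in red where the adjusted p is under 0.05. Ghrl, at −0.47, is the red point. The bars of Insl6 and Rxfp2 lie below 0 as well, though these are unadjusted intervals and neither passed the adjusted threshold.

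Insl6, the germ cell member of the relaxin family, had log2 levels of 9.70, 9.81 and 10.02 in Ing2+/+ testes and of 9.60, 9.61, 8.77, 9.50 and 9.37 in Ing2-/- testes. Every Ing2-/- testis was below every Ing2+/+ testis, by a narrow margin for replicates 1 and 2, while replicate 3 lay far below the others. The means were 9.85 ± 0.162 (SD, n = 3) and 9.37 ± 0.348 (SD, n = 5), which differ by −0.48 (SE 0.187, 95% interval −0.90 to −0.05, limma adjusted p = 0.144). The exact permutation test gave a two-sided p of 0.0714. Leaving out Ing2-/- replicate 3 gave −0.33 (SE 0.0940, limma adjusted p = 0.0544). Its SD among Ing2-/- testes was the largest of the 9 members.

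Rln1, the neighbour of Insl6 in the gene table and the relaxin of pregnancy in mice, lay between 5.77 and 5.93 in Ing2+/+ and between 5.92 and 6.08 in Ing2-/- testes. These ranges just overlapped, and the log2 fold change was 0.13 (95% interval −0.03 to 0.28, adjusted p = 0.252 from limma). Adjacent genes of the same family thus had means on opposite sides of 0, but neither passed the threshold and the difference between them was not tested.

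The Jak3/Insl3 probe set had log2 levels of 7.85, 7.81 and 7.77 in Ing2+/+ testes and of 7.72, 7.83, 8.07, 7.75 and 7.96 in Ing2-/- testes. Replicates 3 and 5 were above and replicates 1 and 4 below all Ing2+/+ testes. The means were 7.81 ± 0.037 (SD, n = 3) and 7.87 ± 0.148 (SD, n = 5), a difference of 0.05 on the log2 scale (SE 0.0903, limma adjusted p = 0.747). Its 95% interval ran from −0.15 to 0.26, or from 0.900 to 1.196 on the fold scale. Without Ing2-/- replicate 3 the log2 fold change was 0.001. No other probe set names Insl3 or Jak3.

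Other genes of Leydig cells were measured beside it. Of 9 measured Leydig markers besides Insl3, limma called 5 higher and 0 lower, with a median log2 fold change of 0.60. They encode enzymes and an electron carrier (Fdx1, 0.48) of testosterone synthesis, and the others were Hsd17b3 (0.94), Cyp11a1 (0.83), Hsd3b1 (0.80) and Cyp17a1 (0.60). Among 5 measured transcription factors known to act on the Insl3 promoter, Nr5a1, Nr4a1, Nr0b1, Gata4 and Nr2f2, limma called 0 and all 5 had an unadjusted p under 0.05, 4 higher and 1 lower. Gata4 (0.55, adjusted p = 0.0797) and Nr0b1 (0.59, adjusted p = 0.0831) had the smallest p, and Nr4a1, an orphan receptor that is induced by luteinizing hormone, had −0.42 (adjusted p = 0.162, all from limma). When the arrays were shifted to an equal median of the Leydig markers, Jak3/Insl3 had −0.68, while the median of all probe sets moved from 0.03 to −0.71. The shift moves all probe sets alike and called 76.8% of them, so it says nothing particular to this one. In whole testis RNA, fewer cells of a type and less RNA per cell cannot be told apart.

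Both G protein-coupled receptors of the relaxin branch were dim. Rxfp2, the receptor of Insl3, had log2 levels of 4.59, 4.62 and 4.58 in Ing2+/+ testes and of 4.44, 4.35, 4.28, 4.44 and 4.37 in Ing2-/- testes. The groups did not overlap, and the spread within each was small. They differed by −0.22 (SE 0.0619, 95% interval −0.36 to −0.08, limma adjusted p = 0.0710). The exact permutation p of 0.0179, two-sided, was again the smallest that these arrays allow. Rxfp2 was called without Ing2-/- replicate 3 (−0.20, adjusted p = 0.0493 from limma), a setting that called 14.1% of all probe sets. Since only 32.5% and 26.5% of the unnamed probe sets lie below its means, how much of this signal is Rxfp2 transcript is not known. Rxfp1, the relaxin receptor, lay between 3.95 and 4.12 in Ing2+/+ and between 3.92 and 4.29 in Ing2-/- testes and had 0.04 (95% interval −0.16 to 0.25, adjusted p = 0.795 from limma).

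Rln3, a neuropeptide of the brainstem, ranged from 5.98 to 6.01 in Ing2+/+ testes and from 5.95 to 6.31 in Ing2-/- testes. The Ing2-/- range enclosed that of Ing2+/+, and the log2 fold change was 0.10 (95% interval −0.11 to 0.32, adjusted p = 0.506 from limma). Insl5, a peptide of the colon, ranged from 6.24 to 6.30 and from 5.99 to 6.25. Ing2-/- replicate 2 alone reached the Ing2+/+ range, and the difference was −0.17 (SE 0.0730, 95% interval −0.33 to 0.00, limma adjusted p = 0.180). Their receptors Rxfp3 (−0.08) and Rxfp4 (0.05) also lay near the level of unnamed probe sets, and neither was called.

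The insulin branch of the family was measured beside the members. Of Ins2, Igf1 and Igf2, limma called 0 and 1 had an unadjusted p under 0.05. Igf1, a growth factor of somatic testis cells, went from a mean of 6.56 to 7.08 (0.52, SE 0.173) without passing the threshold, and Ins2 had −0.04. Of 6 other receptors of the family 0 were called and 2 had an unadjusted p under 0.05, with a median of 0.13. These were Igf1r, the receptor of both insulin-like growth factors, from 7.53 to 8.40 (0.87, SE 0.256, adjusted p = 0.0794 from limma), and Igf2r (0.21, adjusted p = 0.178). In Igf1r the Ing2-/- levels ran from 8.03 to 9.24 and did not overlap with Ing2+/+.

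Prohormones of this family are cut by proprotein convertases and trimmed by carboxypeptidase E. Of 8 measured genes of this kind 0 were called, with a median log2 fold change of 0.21. Cpe, the carboxypeptidase, had the largest difference, from a mean of 9.21 to 10.14 (0.94, SE 0.299, adjusted p = 0.0924 from limma), and was the only one with an unadjusted p under 0.05. The convertase Furin had 0.51 (SE 0.240, adjusted p = 0.202) without overlap, Pcsk5 had 0.34 (adjusted p = 0.183, the next smallest p after Cpe) with overlap, and Pcsk4, the convertase of germ cells, had −0.21 (SE 0.161).

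Rxfp1 and Rxfp2 raise cyclic AMP through G proteins. Of 8 measured genes of that signalling, limma called 1, lower, and 4 had an unadjusted p under 0.05, 2 higher and 2 lower, with a median of 0.02. Gnao1, a G protein alpha subunit to which Rxfp1 and Rxfp2 can couple, fell from a mean of 8.95 to 8.27, by 0.68 on the log2 scale (SE 0.122, adjusted p = 0.0246 from limma). Prkar2a, a regulatory subunit of protein kinase A, had −0.58 (adjusted p = 0.0794 from limma) without overlap. The other two had higher means, also without overlap, and were the G protein subunit Gnai2 (0.44, adjusted p = 0.147) and the transcription factor Creb1 (0.16, adjusted p = 0.153). Over all 39 measured genes of these lists limma called 0 higher and 1 lower, no larger a share than on the whole array, with a median of 0.05.

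Cell type markers differed among the Ing2-/- testes, and their values are set beside those of the 3 brighter members. The mean level of the 8 round spermatid markers, minus the Ing2+/+ mean, was −0.13, −0.26, −0.30, −0.32 and −0.92 in Ing2-/- replicates 4, 1, 2, 5 and 3. Ghrl declined in the same order, from 8.40 to 7.99. So did the 8 pachytene markers, with −0.17, −0.20, −0.26, −0.31 and −0.67. The elongating spermatid markers did not, with −0.14, −0.07, −0.05, −0.25 and −0.46. The 9 Leydig markers had 0.27, 0.43, 0.48, 0.77 and 1.13 in that order of replicates, so Ghrl was lowest where Leydig markers were highest. Insl6 did not follow that order but was lowest in replicate 3, where the 8 pachytene markers were at −0.67 against −0.31 to −0.17 in the other Ing2-/- testes. Jak3/Insl3 was highest in replicates 3 and 5, those with the highest Leydig markers. The same replicates had the highest Sertoli, macrophage, myoid and spermatogonial markers, so the match is not particular to Leydig cells. With 5 testes no correlation was computed, and the part of the cell mix in these differences was not tested.

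**Figure D4:**
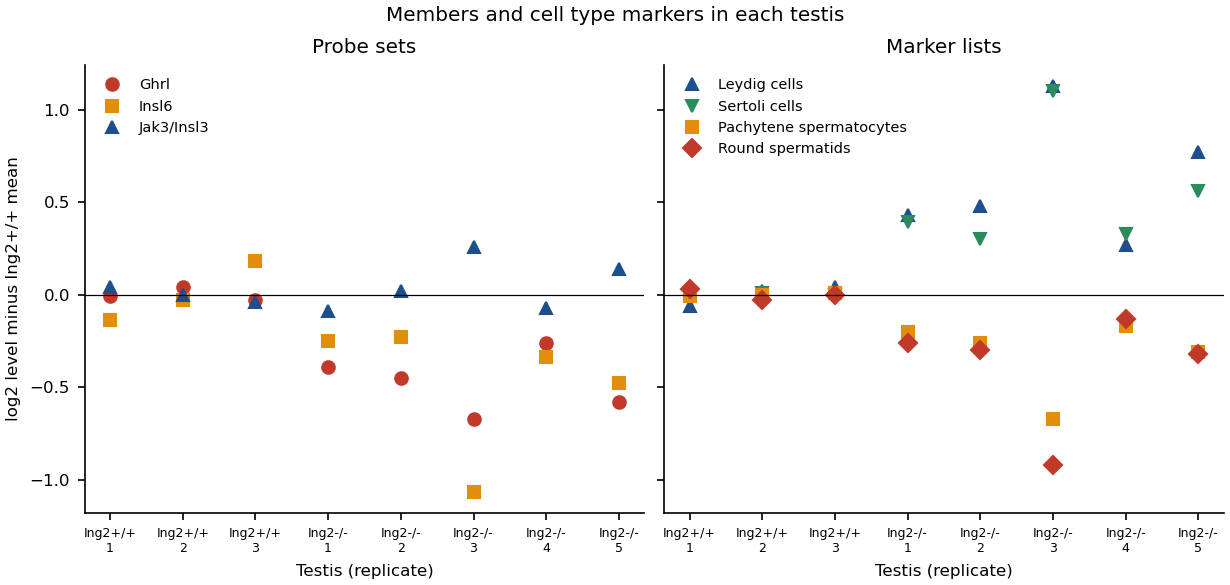
Log2 level minus the Ing2+/+ mean (vertical axis) in each of the 8 testes, for Ghrl, Insl6 and the Jak3/Insl3 probe set (left) and for the mean over 4 marker lists (right). In Ing2-/- replicate 3 Insl6 lies at −1.07 and Ghrl at −0.67, where round spermatid markers are at −0.92 and Leydig markers at 1.13.

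Over the marker lists, limma called 1 of 14 Sertoli genes (Defb36, 0.69) and 1 of 7 endothelial genes (Kdr, 0.49) higher. All 14 Sertoli means were higher, 12 with an unadjusted limma p under 0.05, with a median log2 fold change of 0.53. Called lower were 1 of 8 spermatogonial (Sohlh2, −0.31), 1 of 8 pachytene (Hspa2, −0.40) and 1 of 8 round spermatid genes (Catsper1, −0.74). Of the spermatogonial means 7 were higher, 3 of them with an unadjusted limma p under 0.05. All pachytene and round spermatid means were lower. Of 7 myoid, 7 macrophage and 8 elongating spermatid genes limma called 0. An unadjusted limma p under 0.05 was found for 5 myoid (4 higher, 1 lower), 5 macrophage (all higher) and 1 elongating spermatid gene (lower). The list means in Ing2-/- testes ran from 0.30 to 1.10 for Sertoli, from 0.05 to 0.46 for myoid, from 0.11 to 0.27 for endothelial, from 0.14 to 0.69 for macrophage, from 0.08 to 0.48 for spermatogonial and from −0.46 to −0.05 for elongating spermatid markers. In each list replicate 3 lay at the end farther from Ing2+/+, level with replicate 2 in the endothelial list. Of all these markers only Cd14, in the macrophage list, lay under the median of the unnamed probe sets in Ing2+/+ testes. Ing2 itself lay between 7.34 and 7.60 in Ing2+/+ and between 5.06 and 5.64 in Ing2-/- testes (−2.16, adjusted p = 3.95e-04 from limma). Array medians lay between 6.408 and 6.53, and Ing2-/- replicate 3 had a mean Pearson r of 0.983 with its group across probe sets, against 0.990 to 0.992 in the others.

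Among 21788 other probe sets with 1 symbol, the 3 whose levels most resembled those of Ghrl over the 8 arrays were Toporsl (Pearson r = 0.997), Fuz (r = 0.996) and Iqca (r = 0.991). These r values include the difference between genotypes and are a description, and 398 probe sets had an r over 0.95. Toporsl had a log2 fold change of −0.96, Iqca of −0.84 and Fuz of −0.41, and all 3 were called lower (adjusted p = 0.0300, 0.0375 and 0.0430 from limma).

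**Figure D5:**
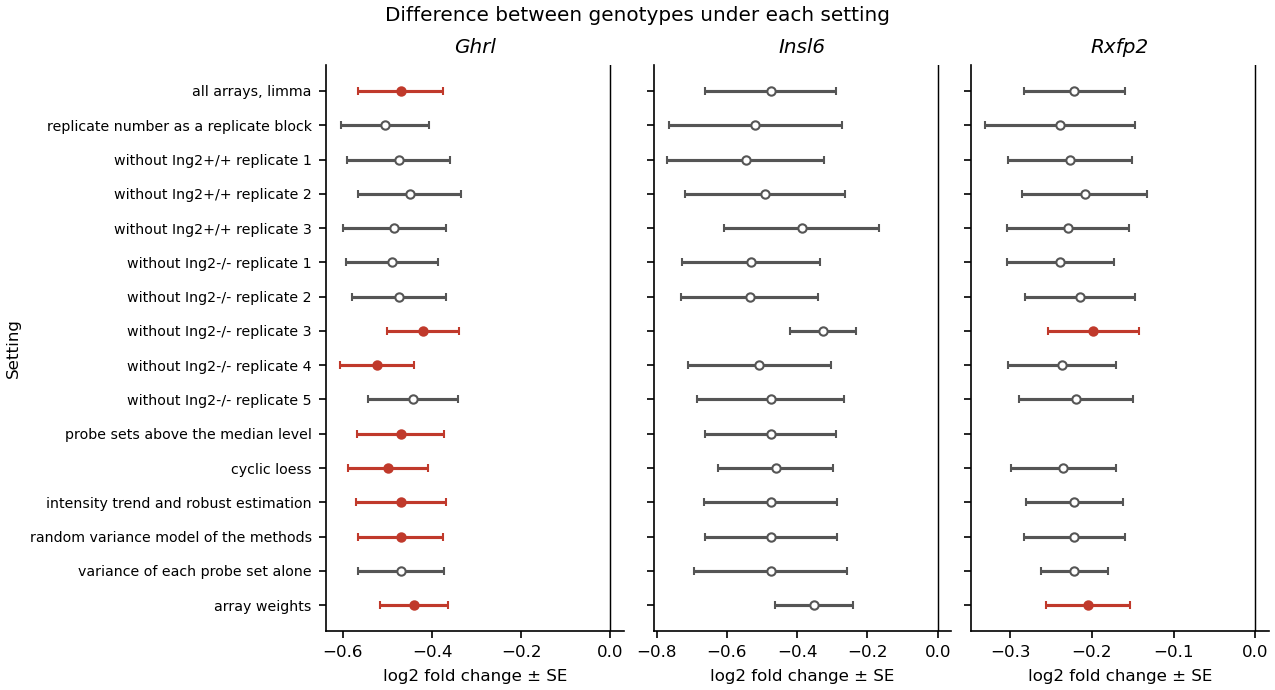
Log2 fold change of Ghrl, Insl6 and Rxfp2 (horizontal axis, ± SE) under each setting (rows), filled red where the adjusted p is under 0.05 and open grey otherwise. The settings that shift all arrays by a marker list are not drawn. All points lie below 0, and the Ghrl call is lost without any 1 of the 3 Ing2+/+ arrays. Leaving out any of these arrays also lowered the count called over the whole array.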

How the data were processed

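Per the labels, RNA was extracted with Trizol and labelled with biotin. The deposited log2 values were made by the authors with RMA (background correction, normalization between arrays, summary per probe set) in Expression Console of Affymetrix (the sources used here name no version). RMA gives arrays a common distribution, so a change in total RNA leaves no trace. Scanner files were not used here.

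Probe sets were named through GEO's platform annotation, and 21698 symbols were updated by gene identifier with the GRCm38.p6 gene table. No coordinates are printed, since the builds differ. For list genes with several probe sets the brightest was used, and probe sets with several symbols were left out of the lists. The comparison used limma 3.58.1 (R 4.3.3) over all 35557 probe sets, with no covariate and no filter (prior degrees of freedom 2.85). The fit was also run on simulated data with independent noise of the same spread in both groups. The Ing2-/- arrays spread more widely than that, so the run does not vouch for these p-values. The number of arrays, 3 and 5, and the spread among the Ing2-/- arrays limit the precision. P-values measure the spread between these mice.

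Members, lists and the rule for named genes (all members, called list genes by size or else the 2 with the smallest p, and the 3 genes most like a called member) were chosen with earlier results of these data known. A few further list genes (Mboat4, Ins2, Furin, Pcsk4, Rxfp3, Rxfp4, Nr4a1, Prkar2a, Gnai2, Creb1) were named after their values were seen. No set test was run. Alternatives were each array left out, the replicate number as a block, probe sets above the median level, cyclic loess, equal medians of Sertoli or Leydig markers, an intensity trend with robust estimation, the methods' random variance model, an unmoderated variance for each probe set, weights per array and the unadjusted p under 0.001 of the methods. The random variance model was fitted here without the authors' software, so its p-values can differ from theirs.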

Additional observations from a re-analysis of the deposited data

Results flagged for a closer look

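Among the 9 members, the Insl6 level of Ing2-/- replicate 3 (8.77 on the log2 scale) stood apart from the other Ing2-/- testes, whose median was 9.55. The gap to the next testis was 0.712 of the range of the group. Chance gives such a gap in about 1 of 20 groups, and 9 groups were looked at. The same array had the lowest pachytene and spermatid markers and the highest Leydig and Sertoli markers of the series.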

How the results depend on the processing

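The count of called members, 1 at first, was 0 with the replicate number as a block and with unmoderated variances, 2 with array weights, 0 to 2 with 1 array left out, and 1 with all other settings that leave the arrays unshifted, an unadjusted limma p under 0.001 included. These counts come from fits made here and not from the authors' software, so they do not show that Ghrl passed in the authors' own comparison. Ghrl lost its call with the block (−0.50, adjusted p = 0.118 from limma) and with unmoderated variances. The latter gave −0.47 with an adjusted p of 0.0884 from an ordinary t test, whose unadjusted p of 0.0028 is over 0.001. Ghrl ran from −0.52 to −0.42 with 1 array left out. Rxfp2 ran from −0.24 to −0.20 there and was called with array weights (−0.21). The count of 2 came in settings that called more of the whole array. They called 18.5% of all probe sets (array weights) and 14.1% (without Ing2-/- replicate 3), against 4.82% at first. Rxfp1 turned to −0.012 without Ing2-/- replicate 2 and ran from −0.01 to 0.10 with 1 array left out. After cyclic loess Jak3/Insl3 had −0.0034. An equal Sertoli marker median moved the median of all probe sets by −0.50 and turned Jak3/Insl3 (−0.44), Rln1 (−0.37), Rln3 (−0.39) and Rxfp1 (−0.45) negative. An equal Leydig marker median moved it by −0.74, called 76.8% of all probe sets and all 9 members, with 1 common SE of 0.267, at −0.68 (Jak3/Insl3), −0.61 (Rln1), −0.63 (Rln3), −0.69 (Rxfp1), −0.82 (Ghsr), −0.90 (Insl5), −0.96 (Rxfp2) and −1.21 (Ghrl and Insl6). These shifts move every member alike. Ghrl, Ghsr, Insl5, Insl6 and Rxfp2 were lower in every setting in which they were fitted. Only Ghrl, Ghsr, Jak3/Insl3 and Insl6 lie above the median level of all probe sets.

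Over all probe sets the number called, 1713 (37.1% higher), was 0 with the block (367 at the unadjusted p under 0.001 and 7980 under 0.05), 184 (37.0% higher) with unmoderated variances, 6565 (55.3% higher) with array weights, 1982 (24.2% higher) after cyclic loess, 2002 (47.4% higher) above the median level, 1452 (0.6% higher) and 27307 (0.1% higher) with equal Sertoli and Leydig medians, and 49 (without Ing2+/+ replicate 2, 12.2% higher) to 5006 (without Ing2-/- replicate 3, 51.9% higher) with 1 array left out. Same-numbered arrays had correlations of −0.0574, 0.184 and 0.00577 between their deviations from the group means. The 0.184 was the largest among all pairs of an Ing2+/+ and an Ing2-/- array. So few values cannot show whether same-numbered mice share a litter or a batch. Dim levels limit Rxfp1, Rxfp2, Rln1, Rln3, Insl5 and Ghsr.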
